A study of Mus musculus with 16 samples.

Results

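Acod1, the gene of the itaconate-making enzyme, was described together with Cs, Dld and Sucla2, which encode enzymes of the tricarboxylic acid (TCA) cycle, in macrophages exposed to beta-glucan. These 4 genes were selected on the contrast between beta-glucan and control libraries, out of 3071 genes in the deposited comparison table. The table itself holds only genes with an adjusted p under 0.05 in the authors' test of 17130 genes. Levels and fold changes of the 4 genes are therefore a description of the libraries, with no test of the contrast, and the values of genes just outside the threshold are not analysed here.

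The cells were macrophages grown from the bone marrow of C57BL/6 mice, which the design text calls aged without giving an age. Marrow cells of both groups were grown with M-CSF, the growth factor that drives macrophage differentiation, at 10 ng/mL for 7 days. The beta-glucan group (8 libraries) then received 10 μg/mL of beta-glucan from Candida albicans for 24 h, and the control group (8 libraries) received PBS. Both groups rested for 7 days in changed medium before RNA was taken, so the RNA describes cells long after the exposure and with no second stimulus named in the labels. The design text places the experiment in the field of trained immunity, the altered state that some innate cells keep after an earlier stimulus. The labels do not say whether each library is a mouse or culture of its own, and every p-value therefore reflects the variation among these libraries alone, part of which may be technical.

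The TCA cycle oxidises acetyl groups in the mitochondrion. Citrate synthase (Cs) joins acetyl-CoA to oxaloacetate. Dihydrolipoamide dehydrogenase (Dld) is the shared E3 subunit of the pyruvate and 2-oxoglutarate dehydrogenase complexes, and succinate-CoA ligase with its ATP-forming beta subunit (Sucla2) turns succinyl-CoA into succinate. Cis-aconitate decarboxylase (Acod1, formerly Irg1) draws cis-aconitate out of the cycle and makes itaconate. In macrophages it is known as a gene strongly induced by bacterial products and interferons, and itaconate is known to inhibit succinate dehydrogenase.

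The table gives Acod1 (ENSMUSG00000022126) on the plus strand of chromosome 14, from 103046977 to 103056573 in the mm10 build named in the submitters' processing notes. Cs (ENSMUSG00000005683) spans 128337734 to 128362479 on the plus strand of chromosome 10. Dld (ENSMUSG00000020664) spans 31331277 to 31351453 on the minus strand of chromosome 12, and Sucla2 (ENSMUSG00000022110) spans 73525319 to 73596142 on the plus strand of chromosome 14. The same spans stand in the GENCODE M21 annotation, where the coding transcripts have up to 5 exons for Acod1, 11 for Cs, 14 for Dld and 12 for Sucla2. None of the 4 genes shared an exonic base with another annotated gene, and 0 of the 50-base stretches of their longest transcripts occurred in a transcript of another gene.

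The sequences upstream of Acod1 and Cs show how different the starts of the inducible gene and the housekeeping enzyme are. Both are the 250 bases before the RefSeq start in GRCm38.p6, 5′ to 3′ on the gene's strand, at chr14:103046762-103047011 for Acod1 and chr10:128337477-128337726 for Cs. Capitals mark the matches to the motifs searched.
Acod1: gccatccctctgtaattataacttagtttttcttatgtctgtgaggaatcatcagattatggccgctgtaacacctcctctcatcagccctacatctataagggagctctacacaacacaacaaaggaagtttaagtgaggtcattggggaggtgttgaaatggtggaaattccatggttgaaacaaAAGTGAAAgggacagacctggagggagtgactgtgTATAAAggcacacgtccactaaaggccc
Cs: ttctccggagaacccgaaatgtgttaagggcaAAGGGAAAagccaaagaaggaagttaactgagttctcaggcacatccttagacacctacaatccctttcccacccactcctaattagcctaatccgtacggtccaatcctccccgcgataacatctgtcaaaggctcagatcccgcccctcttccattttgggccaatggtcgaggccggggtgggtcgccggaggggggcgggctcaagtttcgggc
The Acod1 window holds 1 match to the IRF core AANNGAAA, a pattern that interferon regulatory factors bind, at bases -63 to -56, and 1 TATA box, TATAAA, at -28 to -23. Its last 35 bases lie inside the deposited gene model, which starts 35 bases upstream of the RefSeq start. The Cs window holds the IRF core only, far from the start at -218 to -211.

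Both strands of all 4 windows were searched for these motifs, and also for the gamma-activated site TTCNNNGAA, the AP-1 site TGANTCA, the antioxidant response element TGACNNNGC and the NF-kappaB site. The Sucla2 window held the antioxidant response element at -215 to -207 and the NF-kappaB site at -45 to -36, both on the minus strand, and the Dld window held none of them. The RefSeq start of Sucla2 lies 27467 bases inside the deposited gene model, so its window is an internal one of that model. Among 32851 mouse upstream windows of the same 250 bases, the IRF core occurred in 21.3%, the TATA box in 12.4%, the antioxidant response element in 10.2%, the NF-kappaB site in 7.25%, the gamma-activated site in 7.02% and the AP-1 site in 6.75%. GC content was 44.4% upstream of Acod1, 55.2% for Cs, 43.6% for Dld and 61.2% for Sucla2, against a median of 52.4% over all windows. The ratio of observed to expected CpG dinucleotides separated Acod1, at 0.163, from Cs at 0.686, Sucla2 at 0.769 and Dld at 0.927. A match is a run of letters and says nothing of binding in these cells.

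Libraries were of similar depth. The deposited size factors ran from 0.864 to 1.16, which corresponds to effective library sizes of 15492864 to 20738976 reads, and the listed genes took 4382665 to 5600727 reads per library. The macrophage label was checked with 10 markers, of which 5 are in the table, 4 lower and Cd14 higher with beta-glucan, all detected in every library. Adgre1 (F4/80) averaged 32008 ± 5113 normalized counts in controls and 21683 ± 1969 with beta-glucan, and Csf1r, the M-CSF receptor, 70874 ± 16817 and 44301 ± 3192 (SD, n = 8). Cd14, a co-receptor for bacterial lipopolysaccharide, went the other way, from 5456 ± 1536 to 7844 ± 1001. Each of the 5 overlapped between groups, with 6 of 8 beta-glucan libraries below every control for Adgre1 and Csf1r, 4 for Itgam and 1 for Mertk, and 3 above every control for Cd14. The sum of the 5, mostly Csf1r and Adgre1, ran from 85337 to 158632 in controls and from 74529 to 84808 with beta-glucan. Of the monocyte list 1 of 5 genes was in the table, F13a1, at 61.5 to 520.4 in controls and 9.90 to 39.5 with beta-glucan. Of the neutrophil and precursor list 1 of 9 was present, Csf3r, at 1629 to 2492 and 918 to 1430. None of the dendritic cell, osteoclast, lymphocyte, stromal, mast cell or erythroid markers is in the table, and their levels are not analysed here. Whether a change in cell makeup has a part in the values of the 4 genes was not tested, and in RNA from whole cultures fewer cells of a type and less RNA per cell cannot be told apart.

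Some libraries stood apart. Controls 2 and 3 had the highest levels of Fosb, an immediate-early gene, at 1746 and 1329 normalized counts. The remaining 6 controls held 125 to 760, and the beta-glucan libraries 17.9 to 247. The summed level of the 5 immediate-early genes in the table ran from 6346 to 21377 in controls and from 6593 to 11051 with beta-glucan. Libraries numbered 12 and 13 in both groups also differed from the rest in several of the genes named further on. The fold changes and the likeness to Acod1 are also given without them.

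Acod1 was the member with the largest difference and the largest scatter. Its normalized counts in controls 2, 3, 5, 7, 9, 10, 12 and 13 were 285, 140, 304, 300, 196, 332, 162 and 147. In beta-glucan libraries 5, 6, 7, 8, 9, 10, 12 and 13 they were 441, 545, 898, 642, 578, 935, 236 and 158. Libraries 5 to 10 of the beta-glucan group were all above the highest control, whereas beta-glucan 12 and 13 lay inside the control range.

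**Figure D1:**
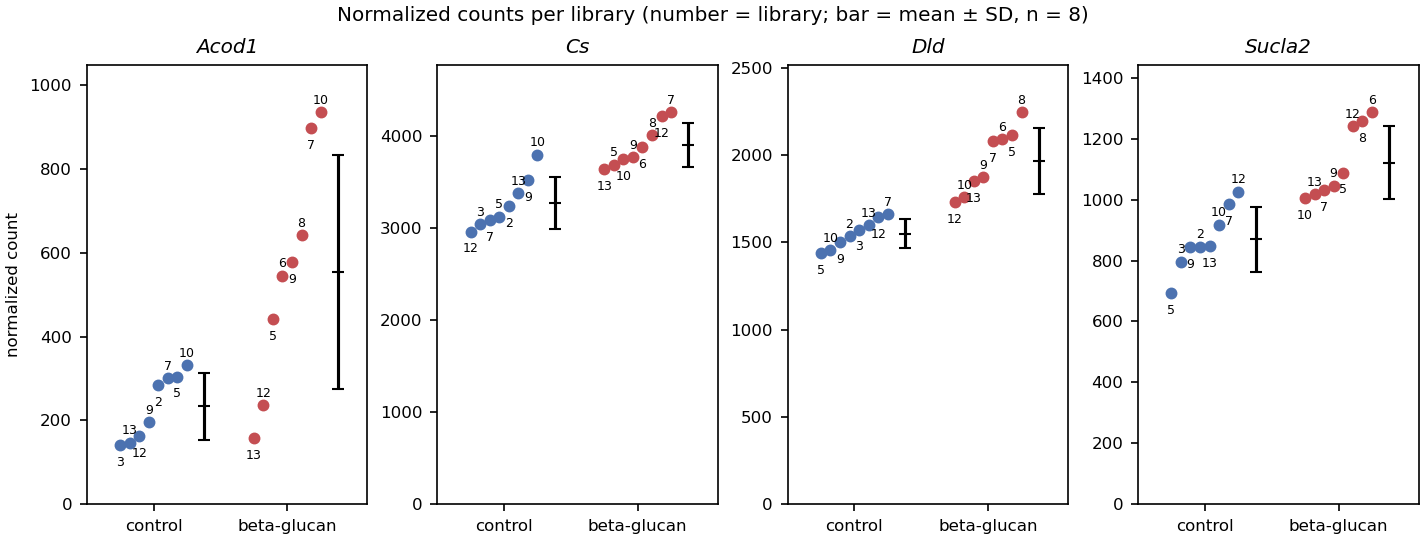
Normalized counts (vertical axis, from 0) of Acod1, Cs, Dld and Sucla2 in each of 8 control (blue) and 8 beta-glucan (red) libraries, numbered by library, with the group mean ± SD as a bar. Beta-glucan libraries 12 and 13 sit within the control range for Acod1, at 236 and 158, and only Dld shows no overlap between groups.

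Mean Acod1 was 233 ± 79.8 normalized counts in controls and 554 ± 278 with beta-glucan (SD, n = 8 each), 2.37 times as high, and the log2 fold change was 1.25 ± 0.31 (SE, edgeR). The authors' deposited table gives it an adjusted p of 0.00369. Relative to the mean, the scatter was 34.2% in controls and 50.2% with beta-glucan, where the counting error of the reads alone gives 6.51% and 4.25%. By log2 fold change Acod1 ranked 45 of the 1079 listed genes that were higher with beta-glucan. Without beta-glucan 12 the log2 fold change was 1.36, and without beta-glucan 13 it was 1.39. Without controls 12 and 13, but with beta-glucan 12 and 13 kept, it was 1.09, a comparison of unlike sets of libraries.

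The 3 enzymes were each higher by a modest amount with little scatter. Cs had a lowest, median and highest normalized count of 2959, 3176 and 3792 in controls and 3641, 3822 and 4253 with beta-glucan. In 4 of 8 beta-glucan libraries it exceeded every control, and control 10 was the 1 control inside the beta-glucan range. Its mean went from 3266 ± 281 to 3898 ± 236 (SD, n = 8), a difference of 19.3%, with a log2 fold change of 0.26 ± 0.07 (SE, edgeR).

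Dld separated the groups. Its counts ran from 1436 over a median of 1553 to 1662 in controls and from 1730 over 1978 to 2245 with beta-glucan, with no overlap in 8 against 8 libraries. Of the 1079 listed genes that were higher, 82 (7.6%) were free of overlap in this way. The mean went from 1550 ± 83.8 to 1968 ± 188, a difference of 26.9%, and the log2 fold change was 0.34 ± 0.07 (SE, edgeR). Libraries 5 to 8 of the beta-glucan group were the 4 highest, between 2082 and 2245.

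Sucla2 had a lowest, median and highest count of 692, 846 and 1027 in controls and 1004, 1067 and 1287 with beta-glucan. The groups touched only at their edges, with control 12 above the lowest beta-glucan library and 6 of 8 beta-glucan libraries above every control. The mean went from 869 ± 106 to 1122 ± 119, a difference of 29.0%, and the log2 fold change was 0.37 ± 0.09 (SE, edgeR). In the authors' deposited table the adjusted p was 0.00571 for Cs, 0.000255 for Dld and 0.00295 for Sucla2.

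All 4 members are thus in the higher direction, which the selection fixed. In the authors' test 17.9% of genes were called, 6.3% higher and 11.6% lower with beta-glucan. The 709 genes that edgeR called higher equal 4.14% of the same 17130 genes. However, edgeR was fitted only to 2738 genes that the authors had already called. The 4.14% is therefore no call rate over all genes and cannot be compared with the 6.3%. Among listed genes that were higher, the median log2 fold change was 0.42, so the 3 enzymes lay below it, ranking 1017 (Cs), 763 (Dld) and 688 (Sucla2) of 1079, and Acod1 well above it. Scaling mattered for sizes. Factors computed from the listed genes are distorted, since all of these genes were called, 1992 of them lower and 1079 higher. Values with such factors only show how far sizes depend on scaling. With TMM factors computed from the listed genes the median of all listed genes moved by 0.235 on the log2 scale, edgeR's 709 higher and 1173 lower calls became 1041 and 418, and the log2 fold changes became 1.50 for Acod1, 0.48 for Cs, 0.57 for Dld and 0.59 for Sucla2, in each case upward by about that same shift. The Cs call was the least stable, since leaving out 1 library ended it in 7 of 16 cases, with an edgeR adjusted p of up to 0.0609, namely without control 2, 3, 5 or 7 or beta-glucan 7, 8 or 12. Without controls 2 and 3 together, the edgeR adjusted p was 0.0557 for Acod1, 0.111 for Cs, 0.0311 for Dld and 0.0709 for Sucla2.

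Per length the enzymes stood above Acod1. The deposited FPKM values, which scale counts to the joined length of all annotated exons, were 31.5 ± 2.71 for Cs, 23.5 ± 1.27 for Dld, 12.2 ± 1.48 for Sucla2 and 4.96 ± 1.70 for Acod1 in controls (SD, n = 8). In that order no 2 neighbours overlapped among controls. With beta-glucan they were 37.6 ± 2.28, 29.8 ± 2.85, 15.7 ± 1.67 and 11.8 ± 5.92, and Acod1, at 3.37 to 19.9, overlapped Sucla2, at 14.0 to 18.0, while the other neighbours stayed apart. That overlap rests on the length used. Acod1 has 2623 bases both as joined exons and as its longest transcript, but the joined exons of Sucla2 hold 3988 bases against 2229 in its longest transcript, those of Cs 5779 against 3003 and those of Dld 3683 against 2544. Per longest transcript, an alternative chosen after seeing the data, Sucla2 ran from 25.1 to 32.2 with beta-glucan, above Acod1 in 8 of 8 libraries, and the order of the 4 means was unchanged in both groups.

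**Figure D2:**
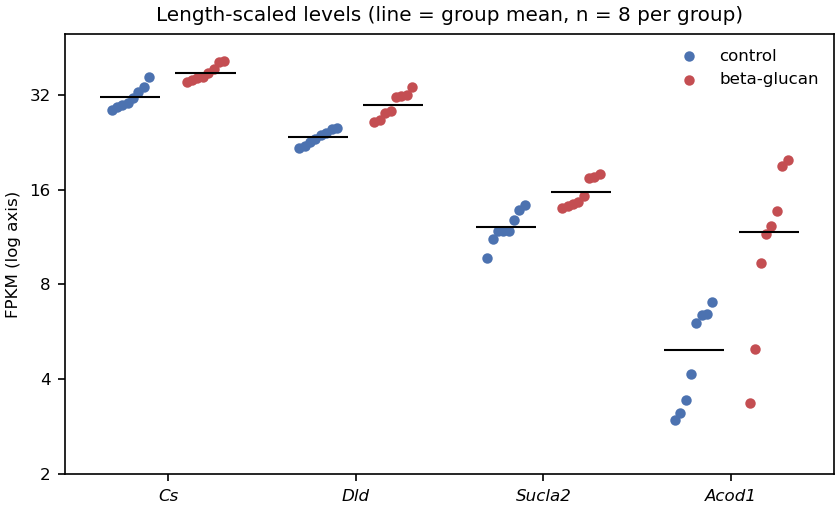
FPKM (vertical axis, log scale) of Cs, Dld, Sucla2 and Acod1 in 8 control (blue) and 8 beta-glucan (red) libraries, with a line at each group mean. The order of the means is the same in both groups, and the Acod1 points with beta-glucan spread from 3.37 to 19.9, across the Sucla2 points, an overlap that is absent when each gene is scaled to its longest transcript.

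Acod1 gained on the enzymes in most libraries. Per length its level was 15.7% ± 5.16 of that of Cs in controls and 31.2% ± 15.5 with beta-glucan (SD, n = 8). Against Dld it was 21.4% ± 7.92 and 39.5% ± 20.6, and against Sucla2 41.5% ± 15.7 and 76.8% ± 42.9. Per longest transcript these shares were lower, at 8.17% and 16.2% of Cs, 14.8% and 27.3% of Dld and 23.2% and 42.9% of Sucla2. Set against the mean of the 3 enzymes within each library, a measure that does not depend on library scaling, log2 Acod1 was -2.88 ± 0.53 in controls and -2.09 ± 0.88 with beta-glucan, a difference of 0.79. The ratio exceeded every control in 6 of 8 beta-glucan libraries. The exceptions were again beta-glucan 12 at -3.14 and beta-glucan 13 at -3.58, the lowest value of all 16 libraries.

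**Figure D3:**
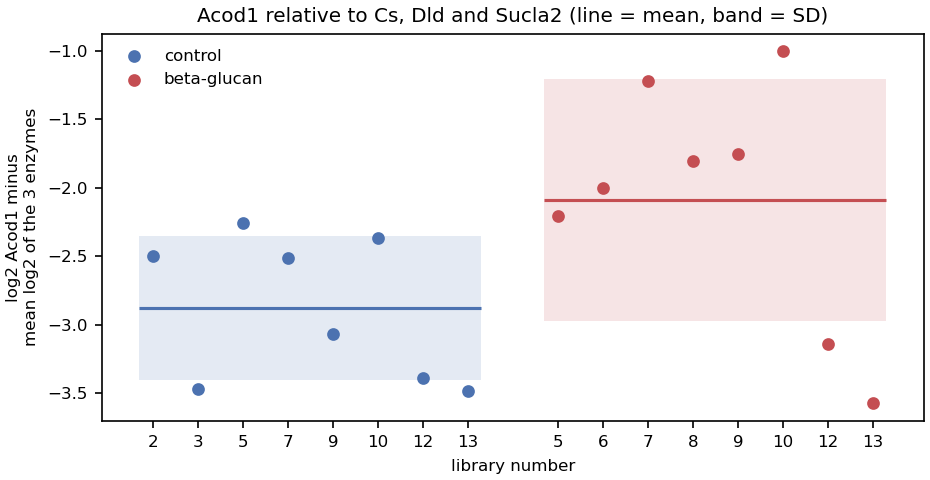
Log2 of Acod1 minus the mean log2 of Cs, Dld and Sucla2 (normalized count + 1) in each library, with the group mean as a line and ± 1 SD as a band. Controls lie between -3.49 and -2.26, and in the beta-glucan group only libraries 12 (-3.14) and 13 (-3.58) fall below -2.26.

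How the genes varied together among libraries of the same group was not part of the choice and was tested. The size of that variation was part of it, since the authors' p depends on the scatter and a small difference enters the table only with low scatter. Of 12 correlations (6 pairs of genes in each group, n = 8), 0 passed an adjusted p of 0.05 in the exact permutation test and 0 had an unadjusted p under 0.05. The highest was between Dld and Sucla2 in controls, with Pearson's r = 0.68 (exact p = 0.0639, adjusted p = 0.740) and Spearman's rho = 0.67 (exact p = 0.0831). It fell to 0.29 without controls 5 and 7. The r of Acod1 with the enzymes lay between -0.48 and 0.36 in the 2 groups. These coefficients rest on the scaling: with TMM factors Dld and Sucla2 in controls reached r = 0.93 (exact permutation test, adjusted p = 0.0188), and Cs and Dld in controls went from -0.57 to 0.62. Those factors come from called genes only and are distorted, so no conclusion is drawn from that pass.

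The difference in spread between groups was compared with an exact two-sided permutation test of the mean absolute deviation from the group median, on the log2 scale. For Acod1 it was 0.464 in controls and 0.638 with beta-glucan (exact p = 0.490), a difference that did not pass. For Dld it was 0.0643 and 0.121 (exact p = 0.0253, adjusted over 4 genes 0.101). Cs (exact p = 0.503) and Sucla2 (exact p = 0.977) differed by less, and 0 of 4 passed after adjustment.

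The genes that followed Acod1 most closely from library to library depended on libraries 12 and 13. Over all 16 libraries, after each group's mean was taken off, the highest Pearson correlations among 2377 genes with a mean of at least 50 normalized counts were with Ass1 (argininosuccinate synthase, 0.853), Srxn1 (sulfiredoxin, 0.853), Slc7a11 (the cystine-glutamate antiporter, 0.840) and Treml4 (a myeloid receptor, 0.838). These coefficients describe libraries that share depth and handling and carry no test. Cs ranked 748 at 0.23, Dld 953 at 0.16 and Sucla2 1532 at -0.09. Without libraries 12 and 13 of both groups, an alternative chosen after seeing the data that leaves 12 libraries, the coefficients were 0.65 for Ass1 (rank 46), 0.76 for Srxn1 (rank 8), 0.63 for Slc7a11 (rank 59) and 0.60 for Treml4 (rank 84). The 4 highest were then Rnf41, Apex1, Src and Utp18, between 0.78 and 0.87, which had ranked 1046, 938, 627 and 1035 over all libraries. Cs then stood at 0.37, Dld at -0.34 and Sucla2 at -0.07.

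Ass1 was at 595, 684, 741, 849, 633, 796, 377 and 317 normalized counts in the controls, in the same order as for Acod1, and at 871, 1121, 1564, 1104, 1161, 1232, 652 and 484 with beta-glucan. Libraries 12 and 13 were its lowest in both groups. The same held for Slc7a11, at 109 and 93.4 in controls 12 and 13 against 162 to 626 in the other controls, and at 328 and 194 in beta-glucan 12 and 13 against 689 to 979. For Treml4, which was lower with beta-glucan (log2 fold change -0.98 in the authors' deposited table), libraries 12 and 13 were again lowest, at 117 and 69.2 in controls and 45.2 and 37.2 with beta-glucan. Treml4 thus varied with Acod1 within groups, less closely without libraries 12 and 13, but went the other way between groups. Ass1, Srxn1 and Slc7a11 were higher with beta-glucan, as Acod1 was. Srxn1 averaged 3128 ± 340 in controls and 4522 ± 1077 with beta-glucan (SD, n = 8), with its lowest value of each group in library 13, at 2587 and 3306.

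**Figure D4:**
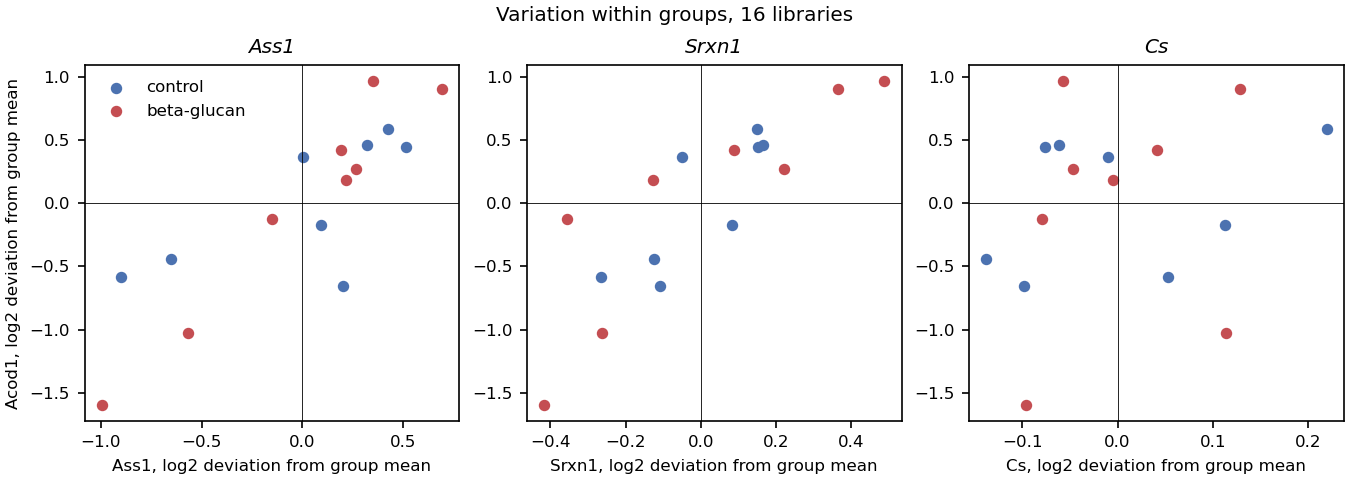
Log2 deviation of Acod1 from its group mean (vertical axis) against that of Ass1, Srxn1 and Cs (horizontal axes) in 16 libraries, control in blue and beta-glucan in red. The points run along a rising band for Ass1 and Srxn1 (r = 0.853 for each, 0.65 and 0.76 without libraries 12 and 13) and scatter for Cs (r = 0.23).

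The enzymes had other companions over all libraries. Cs varied most like Tmem184b (0.89), Rrn3 (0.86), which serves RNA polymerase I initiation, the arginyl-tRNA synthetase Rars (0.86) and the purine synthesis enzyme Atic (0.85). For Dld the closest were the mitochondrial arginyl-tRNA synthetase Rars2 (0.78), the histone deacetylase Hdac2 (0.78), Plekhb2 (0.75) and the pentose phosphate enzyme Rpe (0.73). For Sucla2 they were nucleophosmin, Npm1 (0.89), Krcc1 (0.82), Zc3h15 (0.80) and the mitochondrial chaperonin Hspd1 (0.78). Hspd1 averaged 3504 ± 389 normalized counts in controls and 5104 ± 538 with beta-glucan. Of the 3 enzyme pairs, Dld and Sucla2 were most alike at 0.45, Cs and Sucla2 stood at 0.14 and Cs and Dld at -0.17. As for Acod1, these coefficients carry no test. Unlike for Acod1, the lists were not recomputed without the libraries that stood apart, nor with other scaling. Whether the same genes would stand closest to the enzymes in those settings was not tested.

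Around the members, 5 of 18 TCA cycle enzymes were in the table, all higher, with a median log2 fold change of 0.36. That is 27.8% of the list, where 17.9% of all genes were called and 6.3% were called higher, and 3 of the 5 are the members themselves. The others were Mdh2, the mitochondrial malate dehydrogenase, at 1953 ± 450 and 2564 ± 356 normalized counts (log2 fold change 0.39 ± 0.13), and Sdhb, the iron-sulfur subunit of succinate dehydrogenase, at 1440 ± 374 and 1846 ± 118 (0.36 ± 0.12, SE). Unlike Dld, both overlapped widely between groups: no beta-glucan library exceeded the highest control for Sdhb, 2183 in control 12, and 2 did for Mdh2. The Sdhb call did not hold in edgeR (adjusted p = 0.0690). Values of the remaining 13 enzymes of the list are not analysed here.

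At the entry of pyruvate 2 of 13 genes were in the table (15.4%, near the 17.9% of all genes), both higher. Mpc1, a subunit of the mitochondrial pyruvate carrier, went from 540 ± 51.5 to 678 ± 83.9 (log2 fold change 0.33) and was above every control in 7 of 8 beta-glucan libraries. Dlat, the E2 subunit that works beside Dld in pyruvate dehydrogenase, went from 840 ± 58.3 to 971 ± 74.1 (0.21), a call that did not hold in edgeR (adjusted p = 0.0748). Of 9 genes of the other complexes that use Dld, 2 (22.2%) were listed, both of the glycine cleavage system and in opposite directions. Gcsh, its lipoyl carrier, had a log2 fold change of 0.51 ± 0.14, and Amt, its aminomethyltransferase, one of -1.10 ± 0.45 at 42.8 ± 17.6 and 19.9 ± 12.1 normalized counts, with an edgeR adjusted p of 0.162. For glutamine entry 1 of 8 (12.5%) was listed, the mitochondrial aspartate aminotransferase Got2 (0.28), and of 8 genes for citrate export and its cytosolic partners 0 were listed.

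**Figure D5:**
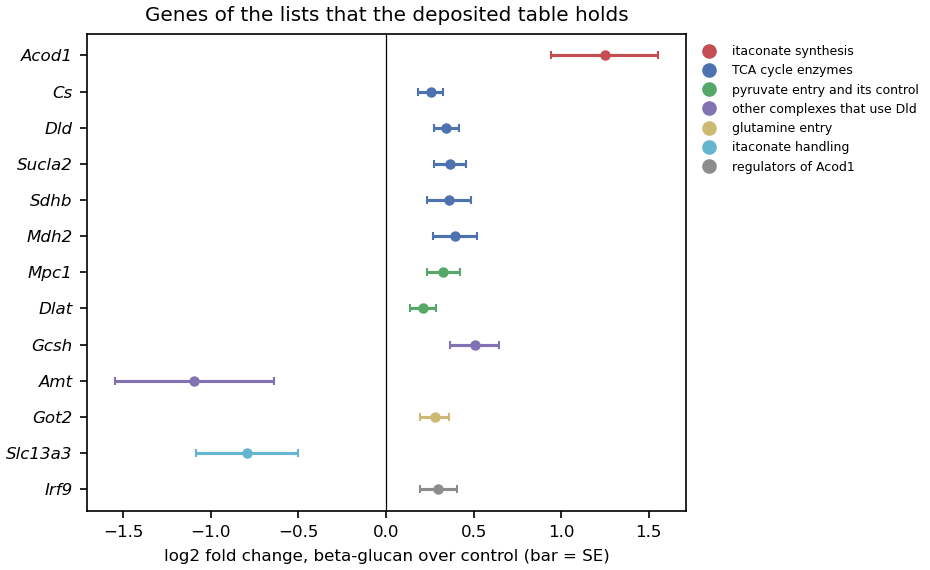
Log2 fold change, beta-glucan over control (horizontal axis, bars are the SE), of Acod1 and of the genes from the lists on the cycle, pyruvate and glutamine entry, Dld-using complexes, itaconate handling and Acod1 regulators that the deposited table holds. Acod1 stands at 1.25, the enzymes between 0.21 (Dlat) and 0.51 (Gcsh), and Amt and Slc13a3 are negative.

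On the itaconate side, 1 of 8 genes for its handling (12.5%) was in the table. Slc13a3, a sodium-coupled dicarboxylate carrier reported to take up itaconate, was at 281 ± 153 normalized counts in controls and 162 ± 69.5 with beta-glucan (log2 fold change -0.79 ± 0.29), with overlapping groups and an edgeR adjusted p of 0.0884. Of 12 regulators of Acod1, 1 (8.33%) was listed, Irf9, a transcription factor of interferon signalling, at 743 ± 141 and 913 ± 68.3 (0.30 ± 0.11), again not called by edgeR (adjusted p = 0.0753). None of 17 inflammatory genes that are usually induced with Acod1, Nos2, Il1b and Il6 among them, is in the table, so none passed the authors' threshold. That compares with 17.9% of all genes tested.

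Of 13 genes for proteins and pathways that itaconate is known to act on, 7 (53.8%) were listed, 3 higher and 4 lower, where 17.9% of all genes were called, 6.3% higher and 11.6% lower. This list and those above were chosen with earlier results of these data known. Their shares are therefore descriptions and cannot show an excess. Higher were Srxn1 (log2 fold change 0.53 ± 0.13), Slc7a11 (1.18 ± 0.37) and the stress factor Atf3 (0.58 ± 0.16, SE). Lower were Nfkbiz (-2.17 ± 0.52), which encodes IkappaB-zeta, the DNA demethylase Tet2 (-1.26 ± 0.21), and Gclm (-0.58 ± 0.22) and Gclc (-0.48 ± 0.15), the subunits of glutamate-cysteine ligase. Srxn1, Slc7a11, Gclm and Gclc are all known targets of NRF2, the factor freed when itaconate modifies KEAP1, and of them 2 were higher and 2 lower. The 6 genes of the list outside the table, Hmox1, Nqo1 and Txnrd1 among them, are not analysed here. Whether itaconate or NRF2 has a part in these values was not tested. The Gclm call did not hold in edgeR (adjusted p = 0.104). Nfkbiz was high in controls 2 and 3, at 3803 and 2423 normalized counts. It ran from 231 to 1014 in the remaining 6 controls, and the beta-glucan libraries lay between 98.8 and 398. Without those 2 controls its log2 fold change was -0.96 ± 0.32, against -2.17 with all libraries, and edgeR no longer called it (adjusted p = 0.0969). Of the 16 listed genes of these lists other than the members, edgeR called 10 with all libraries, 1 (Tet2, -1.11) without controls 2 and 3, and 13 without controls 12 and 13. All 16 kept their sign. Over all fitted genes edgeR called 1882 of 2738, 629 of 2748 and 2296 of 2767 in the same settings. The last setting kept beta-glucan 12 and 13, although libraries of these numbers stood apart in both groups, so its sizes and calls compare unlike sets of libraries. Tet2 was below every control in 7 of 8 beta-glucan libraries, at 198 to 461 against 431 to 1123.

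The authors' deposited enrichment tables place the members in terms without a call. The KEGG citrate cycle held 6 listed genes of 29 (20.7%, against 18.3% of the KEGG background), 6 higher and 0 lower, with an adjusted p of 0.884 in the authors' deposited table. The GO tricarboxylic acid cycle held 5 of 28 (17.9% against 17.4%, adjusted p 0.890 in the authors' deposited table). Acod1 stood in 83 GO terms of those tables, Cs in 28, Dld in 100 and Sucla2 in 29, and 0 of them had an adjusted p under 0.05.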

How the data were processed

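RNA of 16 libraries, 8 control and 8 beta-glucan by their titles, was isolated with a Qiagen column kit and made into libraries by Novogene, per the labels. CASAVA, STAR 2.5, HTSeq 0.6.1, DESeq2 and the mm10 build are named in the submitters' processing notes, and no source used here gives the strand setting. The authors deposited whole-number read counts per gene, a normalized count (a signal: the count over 1 size factor per library), FPKM values (normalized counts per kilobase, scaled to 17937135 reads), the log2 fold change and the p-values, unadjusted and adjusted. The deposited table lists 3071 of 17130 tested genes, and the other 14059 are not analysed here.

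Fold changes with SEs came from edgeR 4.0.16 (glmQLFit, glmQLFTest, filterByExpr, two-sided) in R 4.3.3, with the deposited size factors, 2738 genes fitted and Benjamini-Hochberg adjustment over 17130 genes. Because the listed genes had already passed, these p-values are optimistic and serve only to show whether a call held. DESeq2 1.42.0 was an alternative. Correlations and spreads used log2(normalized count + 1) and exact permutation tests in SciPy 1.17.1, over the libraries of a group. The pipeline was tested on simulated data.

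The members and lists were chosen with earlier results of these data known. Genes named were the members, the listed genes of each list (the 6 most abundant where there were more, so Slc7a11 is named through its likeness to Acod1 only), and for each member the 4 genes most like it within groups. Rnf41, Apex1, Src and Utp18 were named after their values were seen. Statements on libraries 2, 3, 12 and 13 were made after their values were seen. Upstream sequences and all-window shares came from RefSeq on GRCm38.p6.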

Additional observations from a re-analysis of the deposited data

How the results depend on the processing

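All 4 log2 fold changes kept their sign under every alternative run. Each was called under DESeq2's test, without a count filter, with TMM factors and with DESeq2 size factors computed from the listed genes. The same held without controls 12 and 13, with beta-glucan 12 and 13 kept. The members were selected as called and higher on this contrast. These signs and calls were thus largely fixed beforehand and lend it no support. DESeq2's test used the deposited size factors, and factors from the listed genes moved every member upward. Without controls 2 and 3, Acod1 (1.21), Cs (0.24) and Sucla2 (0.34) were no longer called by edgeR. Leaving out 1 library at a time gave 0.24 to 0.29 for Cs, and ended no call of Acod1 (1.10 to 1.39), Dld (0.31 to 0.37) or Sucla2 (0.33 to 0.41). No label says what the 6 replicate numbers shared by both groups mean, and the main fit did not take them as pairs. Deviations of same-numbered libraries correlated above 0.1 for 3 of 6 numbers (-0.151 to 0.542), and 1 of 6 was closest to its own number. With a replicate block over those 12 libraries the values were 0.99 for Acod1 (edgeR adjusted p 0.0378), 0.23 for Cs, 0.29 for Dld and 0.28 for Sucla2, the last 3 not called, and edgeR called 355 genes in place of 1882. The same 12 libraries unpaired, an alternative added after seeing the data, gave 1.17, 0.23, 0.30 and 0.28, none called (adjusted p 0.138 to 0.274), and 68 calls. On these 12 libraries the SE for Acod1 was 0.21 with the block and 0.38 without it. Whether the numbers mark pairs or a shared batch was not tested. Over all listed genes edgeR called 629 without controls 2 and 3 and 1150 to 2276 without 1 library, and DESeq2's test called 2942. The cause was not tested.

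Within groups, 1 correlation passed with TMM factors, which are distorted because only called genes are listed, and 0 otherwise. Of 132 recomputed coefficients 17 changed sign, none of them called before. With TMM factors, r in controls became 0.62 for Cs and Dld and 0.71 for Cs and Sucla2, and the spread difference of Dld became -0.03. Without controls 12 and 13, r in controls became 0.23 for Acod1 and Sucla2 and 0.32 for Cs and Sucla2, and the spread difference of Sucla2 0.00428. Leaving out 1 library at a time, r ranged from -0.19 to 0.60 for Acod1 and Cs, -0.57 to 0.092 for Acod1 and Sucla2 and -0.048 to 0.55 for Cs and Dld with beta-glucan. In controls it ranged from -0.034 to 0.45 for Acod1 and Cs, -0.24 to 0.31 for Acod1 and Sucla2 and -0.25 to 0.32 for Cs and Sucla2. Spread differences then ranged from -0.039 to 0.0028 for Cs and -0.027 to 0.022 for Sucla2. With 138 reads or more for Acod1 in every library, counting error was far below the scatter between libraries.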

Other observations

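Both subunits of glutamate-cysteine ligase and 2 further genes set libraries 12 and 13 of each group apart from the other libraries of that group, a pattern noticed after the values were seen. Gclm was at 3614 and 2513 normalized counts in controls 12 and 13 against 6261 to 7746 in the other controls, and at 2034 and 2424 in beta-glucan 12 and 13 against 4101 to 5185. Gclc was lowest in the same libraries of each group. It was at 889 and 1069 in controls 12 and 13 against 1512 to 2041 in the other controls. With beta-glucan it was at 797 and 951 against 1033 to 1344. Mdh2 was highest there, at 2808 and 2489 in controls 12 and 13 and at 2957 and 3135 in beta-glucan 12 and 13, against 1549 to 1848 and 2079 to 2665 in the rest. Gcsh was also highest there, at 673 and 564 in controls 12 and 13 against 302 to 433 in the other controls. With beta-glucan it was at 620 and 710 against 579 to 609, a narrow margin for library 12. No label gives a batch, animal or day for these numbers.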
